A study of Mus musculus with 16 samples.

Results

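S100 proteins are small calcium-binding proteins of the EF-hand type, which mostly act as dimers and change shape when calcium binds, so that they can hold on to a target protein. S100A4 binds non-muscle myosin and is known for its part in cell movement, S100A6 binds annexins and the calcyclin-binding protein Cacybp, S100A10 holds annexin A2 in a complex at the plasma membrane without needing calcium, S100A11 binds annexin A1, and S100A13 takes part in the release of proteins that lack a signal peptide. S100A8 and S100A9 form calprotectin, an abundant protein of neutrophils and monocytes. In T cells, S100a4, S100a6, S100a10 and S100a11 transcripts are known from antigen-experienced rather than naive cells.

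The 7 genes described here, S100a4, S100a6, S100a8, S100a9, S100a10, S100a11 and S100a13, were chosen by name from the 17 S100 genes among the 31053 genes counted in lung and MLN and the 32285 counted in medLN and MLN. They were chosen with their levels in lung against MLN and in medLN against MLN of IL-4eGFP+ cells already known, so these 2 comparisons are given for them as a description, with no p-value, and the number of members past the threshold stands only beside the share of all genes. The measure used throughout is the unique molecular identifier (UMI), which counts 1 captured transcript 5′ end, and CPM is a gene's UMI count scaled to a common total in each sample (1000000 UMIs over all genes other than TCR genes). Because each transcript gives 1 end, the counts do not grow with transcript length.

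All mice were female IL-4eGFP reporter (4get) mice on a C57BL/6 background, studied 10 days after infection with Nippostrongylus brasiliensis (500 larvae), a roundworm that passes through the lung to the gut, and given antibiotics in drinking water for the first days. In the first experiment CD4+IL-4eGFP+ cells were sorted from the perfused lung and the mesenteric lymph nodes (MLN) of 2 mice aged 13 weeks, 1 library per organ and mouse, named here lung 1, lung 2, MLN 1 and MLN 2. Perfused lung still holds some cells of the blood vessels. In the second experiment CD4+ cells of the lung-draining mediastinal lymph nodes (medLN) and the MLN of 2 other mice, aged 10 weeks, were marked with hashtag antibodies and sorted by the reporter, with 1 library for IL-4eGFP+ and 1 for IL-4eGFP- cells, which gave 8 samples of organ, mouse and gate. The reporter marks cells that have opened the Il4 gene, and cells other than conventional Th2 cells, such as NKT cells, can carry it. Each gate was 1 library, so gate and library cannot be told apart. No uninfected mice were among the samples. Mouse 1 and mouse 2 are different animals in the 2 experiments.

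Of the sequenced barcodes, 4714 cells of lung and MLN (416 to 2462 per library) and 16748 cells of medLN and MLN (1992 to 2249 per sample) were kept, with 2789698 to 14441242 and 7518857 to 10593214 UMIs per sample. Median depth per cell was 6891 and 5734 UMIs in lung, 4951.5 and 4932.5 in MLN and 3150.5 to 3644 in the second experiment, so shares of cells with a UMI were also computed with each cell thinned to 2000 UMIs. Libraries of the first experiment shared 0 to 8 barcodes and the gates of the second shared 113. The 4 T cell markers other than TCR genes (Cd3d, Cd3e, Cd3g, Cd4) were detected in all samples and summed to 3052 to 4101 CPM. The Th2 list (Il4, Gata3, Il1rl1) summed to 344 to 1736 CPM in IL-4eGFP+ samples and to 31.6 to 45.4 CPM in IL-4eGFP- samples.

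The 7 genes lie on mouse chromosome 3 in 2 groups (GRCm38, GENCODE vM21). S100a13 (chr3:90514435-90524581), S100a4 (chr3:90603771-90606045), S100a6 (chr3:90612882-90624181) and S100a8 (chr3:90668978-90670035) are on the plus strand and S100a9 (chr3:90692632-90695721) on the minus strand. S100a11 (chr3:93520488-93526287) and S100a10 (chr3:93555080-93564643) are neighbours further along, both on the plus strand. S100a13 starts head to head with S100a1 (chr3:90511034-90514392, minus strand). A processed pseudogene of S100a11 (S100a11-ps, chr12:73961142-73961447) could share reads with it, so its counts carry that uncertainty.

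RefSeq (GRCm38.p6) gave the sequence around the start site, 250 bases before to 50 after, for 6 of the 7 members, with no entry for S100a10. The 3 whose levels the results turn on are shown, S100a4 (chr3:90603520-90603819, plus strand), S100a6 (chr3:90612644-90612943, plus strand) and S100a11 (chr3:93520246-93520545, plus strand). Capitals mark TATAAA (the TATA box), GGGCGG (the GC box of SP and KLF factors) and TGANTCA (the AP-1 motif), searched on both strands.
S100a4: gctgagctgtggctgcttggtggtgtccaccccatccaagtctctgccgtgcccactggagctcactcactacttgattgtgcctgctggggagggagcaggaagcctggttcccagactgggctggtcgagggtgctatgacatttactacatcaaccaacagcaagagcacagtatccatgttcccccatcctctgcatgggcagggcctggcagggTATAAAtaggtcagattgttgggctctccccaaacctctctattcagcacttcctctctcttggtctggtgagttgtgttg
S100a6: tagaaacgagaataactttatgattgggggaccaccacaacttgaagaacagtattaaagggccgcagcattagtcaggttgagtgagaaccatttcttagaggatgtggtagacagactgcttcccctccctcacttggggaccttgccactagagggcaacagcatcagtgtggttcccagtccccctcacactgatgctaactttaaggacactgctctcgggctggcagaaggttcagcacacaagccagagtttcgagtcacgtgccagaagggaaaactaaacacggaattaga
S100a11: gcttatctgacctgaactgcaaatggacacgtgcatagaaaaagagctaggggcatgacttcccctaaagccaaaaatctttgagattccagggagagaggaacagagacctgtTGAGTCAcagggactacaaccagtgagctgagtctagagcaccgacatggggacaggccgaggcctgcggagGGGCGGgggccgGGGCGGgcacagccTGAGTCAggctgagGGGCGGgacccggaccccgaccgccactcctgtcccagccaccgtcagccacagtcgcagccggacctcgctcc

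S100a4 held TATAAA 31 bases before its start site. S100a11 held no TATAAA but TGAGTCA 136 and 38 bases before the start and GGGCGG 64, 52 and 24 bases before it. S100a6 and S100a13 held none of these letters, and S100a8 held TATAAA 30 bases before its start, while the S100a9 window held TATAAA at its first base after the start and GGGCGG 223 bases before it. Of all 32851 windows of this length, 13.6% held TATAAA, 35.7% GGGCGG and 7.81% TGANTCA, and the motifs do not overlap one another. These matches are letters in a window and no evidence that a factor binds there.

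S100a8 and S100a9, the calprotectin genes, were at or near 0 in every sample. S100a9 had 0 UMIs in all 21462 cells, which allows a share of up to 0.014% of cells with a UMI. S100a8 had 1 UMI, in 1 cell of MLN 2, and 0 in the 16748 cells of medLN and MLN, which allows up to 0.0179%. Neither gene could be tested. Among the 14 neutrophil markers Camp, Cebpe, Lcn2 and Ly6g had 0 UMIs in all samples. Others had UMIs in some samples, such as Csf3r (2) and Ngp (1) in MLN 1 IL-4eGFP+, Ltf (1) in MLN 2 IL-4eGFP+ and Retnlg (1) in MLN 1. Il1r2, Mmp9 and G0s2 together made up most of the list's 10.9 to 50.9 CPM. In IL-4eGFP+ cells G0s2 had the least of these, 0 UMIs in lung and MLN 2 and 1 in MLN 1. In the IL-4eGFP+ samples of the nodes it had 1 to 4.

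The other 5 members were expressed, and their levels differed widely between genes and samples. S100a10 ranged from 262 CPM in MLN 2 IL-4eGFP- to 1317 CPM in lung 2, S100a6 from 15.4 to 1389 CPM, S100a11 from 92.3 to 678 CPM, S100a13 from 141 to 330 CPM and S100a4 from 7.25 to 222.5 CPM. S100a10 had the highest level of the family in 11 of the 12 samples, and S100a4 the lowest of the 5 in all 12. In lung the ranges of S100a6 and S100a10 overlapped, S100a6 being first in lung 1 and S100a10 in lung 2. In the 4 IL-4eGFP+ samples of the nodes the order was S100a10, S100a11, S100a6, S100a13 and S100a4. In the 4 IL-4eGFP- samples the order was S100a10, S100a13, S100a11, S100a6 and S100a4. Together the 5 genes made up 3688 and 3581 CPM in lung, 1797 and 1725 CPM in MLN of the first experiment, 2048 to 2280 CPM in the IL-4eGFP+ samples and 518 to 742 CPM in the IL-4eGFP- samples.

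**Figure D1:**
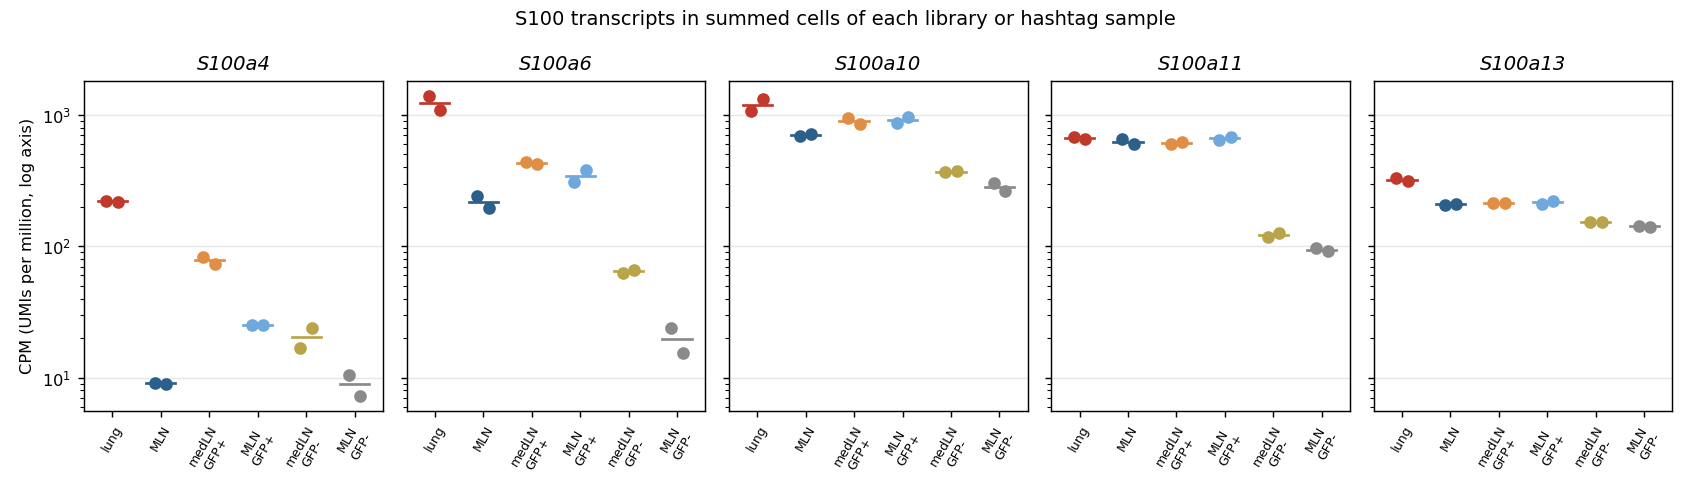
Level of 5 S100 transcripts in the summed cells of each sample, in CPM on a log axis, with 1 point per library or hashtag sample and a line at the mean of the 2 mice of a group. S100a6 spans the widest range, from 15.4 CPM in MLN 2 IL-4eGFP- to 1389 CPM in lung 1, and S100a13 the narrowest.

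The first comparison was between Th2 cells of lung, where the larvae pass early, and of MLN, which drain the gut. S100a4, the myosin-binding member, was at 222.5 and 217.9 CPM in the 2 lung libraries and at 9.14 and 8.98 CPM in the MLN libraries. The groups were far apart, with a fitted log2 difference of 4.73 ± 0.14 (SE, n = 2 and 2 libraries, edgeR). S100a6 was at 1389 and 1079 CPM in lung and 241 and 197 CPM in MLN. Every lung value lay above every MLN value, and the log2 difference was 2.64 ± 0.19. S100a10, the annexin A2 partner, was at 1068 and 1317 CPM in lung and 684.5 and 713 CPM in MLN, a log2 difference of 0.90 ± 0.13 with no overlap. S100a13 was at 330 and 313 CPM against 206 and 211 CPM, a log2 difference of 0.76 ± 0.12, again with no overlap. S100a11 was at 678 and 655 CPM in lung and 657 and 595 CPM in MLN, where the ranges overlapped and the log2 difference was 0.23 ± 0.13. Of the 5 members fitted, 4 lay past the threshold used for all genes (adjusted p of 0.05), each higher in lung, and S100a11 did not. The members were listed with this comparison known and 31.0% of all 10587 genes passed, so nothing is read from the count. The median log2 difference of the 5 members was 0.90 beside -0.01 for all genes.

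For S100a4 and S100a6 both the share of cells with a transcript and the UMIs per cell that had it were higher in lung. S100a4 was found in 45.2% (95% Clopper-Pearson interval 42.2 to 48.2) and 40.6% (35.9 to 45.5) of lung cells and in 2.60% (2.01 to 3.31) and 2.52% (1.52 to 3.91) of MLN cells. After thinning to 2000 UMIs the shares were 26.5% and 23.8% in lung and 0.872% and 1.75% in MLN. The thinned cells that had S100a4 held 1.64 and 1.77 UMIs on average in lung and 1.29 and 1.38 in MLN. The MLN values rest on few cells, 64 in MLN 1 and 19 in MLN 2 before thinning. There the 10 cells with most S100a4 held 43.9% and 77.5% of its UMIs. S100a6 was found in 69.0% and 63.2% of thinned lung cells and 19.6% and 16.4% of thinned MLN cells, and the cells that had it held 3.72 and 3.13 UMIs on average in lung and 2.02 and 1.97 in MLN. The largest count of S100a6 in a cell was 131 UMIs, in lung 1. For S100a11 the thinned shares were 69.4% and 67.6% in lung and 62.8% and 59.5% in MLN, with 1.99 and 2.07 against 2.18 and 2.00 UMIs per cell that had it. Intervals cover counting error only. No cell type that lacks these transcripts was sorted, so the share of cells that free RNA alone would give was not measured.

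**Figure D2:**
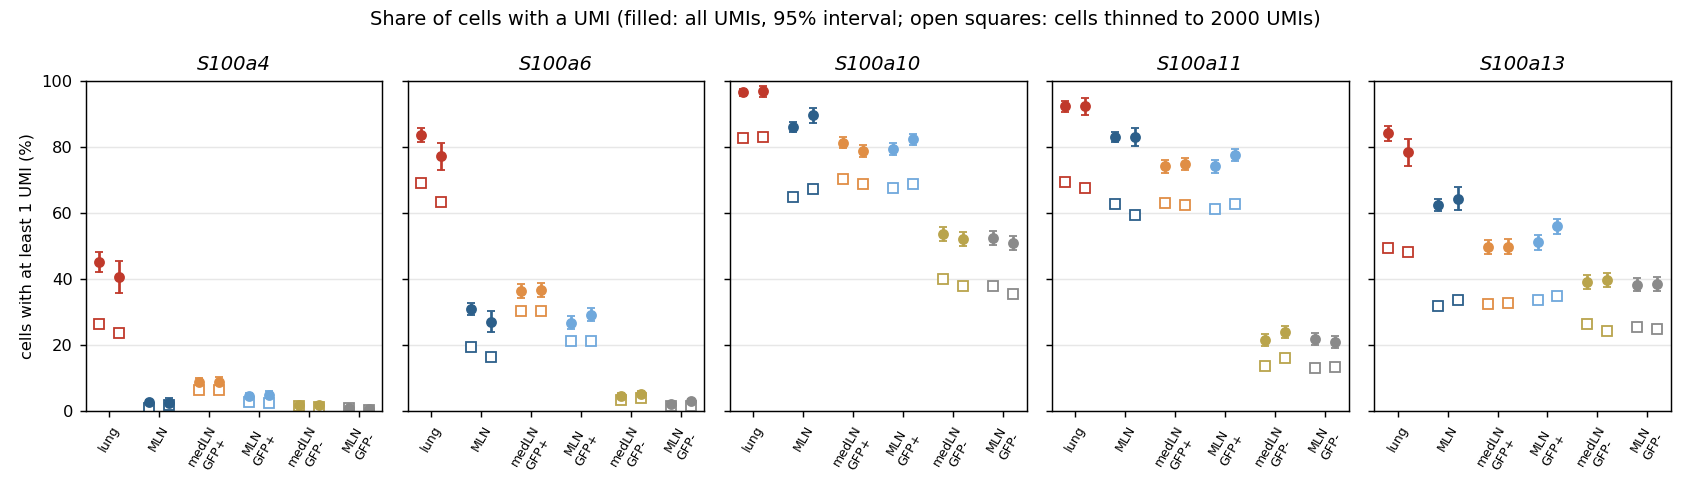
Share of cells with at least 1 UMI of 5 S100 transcripts in each sample, in percent, with all UMIs (filled points, 95% Clopper-Pearson intervals) and after thinning each cell to 2000 UMIs (open squares). S100a4 reaches 45.2% of cells in lung 1 and 2.60% in MLN 1, while S100a10 is found in 50.9% to 97.1% of the cells of all 12 samples before thinning.

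**Figure D3:**
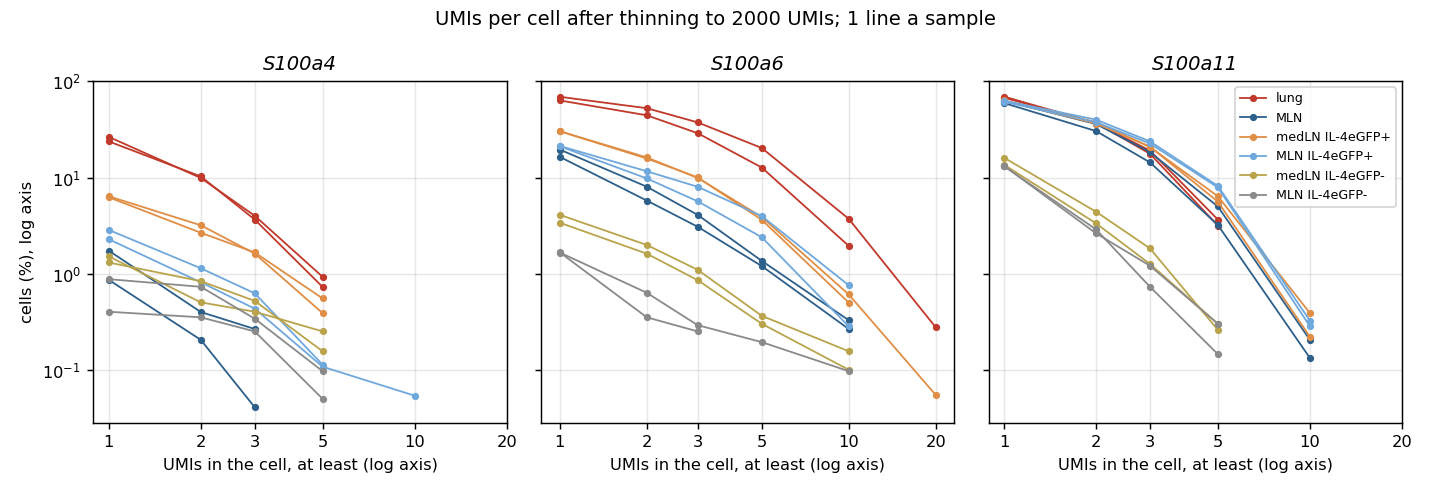
Share of cells, in percent on a log axis, that hold at least the given number of UMIs of S100a4, S100a6 or S100a11 (log axis) after thinning each cell to 2000 UMIs, with 1 line per sample. From 1 to 5 UMIs the 2 lung samples lie above all others for S100a4 and S100a6, and for S100a11 the IL-4eGFP+ samples of all organs lie together above the IL-4eGFP- samples.

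The partner genes, 21 annexins, tropomyosins, myosins, receptors and other genes, known S100 targets among them, were compared in the same libraries. This list was chosen with earlier results of these data known, so nothing is read from counts of partners here or below. Of the 15 that could be tested, 9 were higher in lung, none lower and 6 did not pass. Of all 10587 genes 31.0% were called, 1803 higher in lung and 1481 lower. The median log2 difference of the partners was 0.48 beside -0.01 for all genes. Anxa1, the partner of S100A11, was at 30.1 and 42.3 CPM in lung and 1.87 and 2.02 CPM in MLN. Capg, an actin-capping protein that calcium also controls, was at 277 and 217 CPM against 22.6 and 23.8 CPM. Ahnak, a giant scaffold protein that binds the complex of S100A10 and annexin A2, was at 483 and 534 CPM against 73.5 and 72.1 CPM. Log2 differences of these 3 were 4.32, 3.57 and 2.93, and smaller ones were found for Anxa6 (1.43), Anxa2 (1.34), Tpm4 (0.81), Sugt1 (0.53), Tpm3 (0.48) and Anxa5 (0.44). The myosin heavy chain Myh9, the known target of S100A4, was at 487 and 483 CPM in lung and 534 and 482 CPM in MLN and did not pass. The receptor genes Ager and Tlr4 were at most at 3.37 and 0.358 CPM in these 4 libraries.

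Within the lung and MLN libraries the differences of S100a4 and S100a6 were present in cells split by 9 marker genes, wherever enough cells allowed a ratio. A marker's cells are those with at least 1 UMI of it. With at least 20 such cells in both organs of a mouse, 33 ratios of lung over MLN could be formed. None was formed for cells with Foxp3, with 3 to 7 such cells per library, or for cells with Il13 in mouse 2. The ratio of S100a4 was above 1 in 33 of 33, from 7.89 to 101, and that of S100a6 in 33 of 33, from 1.74 to 10.8. For S100a10 it was above 1 in 33 of 33, from 1.23 to 2.20, for S100a13 in 33 and for S100a11 in 27. The ratios divide the same libraries in several ways, and the members were chosen with this comparison known. Nothing is therefore read from these counts. The makeup of the libraries differed between the organs, as Il1rl1 was found in 70.0% and 53.9% of lung cells and 3.29% and 4.91% of MLN cells, Il13 in 318 of 1082 and 83 of 416 lung cells against 30 of 2462 and 10 of 754 MLN cells, and Cxcr5 in 3.23% and 0.96% against 40.5% and 36.1%. The monocyte and macrophage list (12 genes) summed to 3.54 and 2.51 CPM in lung and 31.0 and 59.3 CPM in MLN, with Lyz2, C1qa, C1qb, C1qc and Marco at 0 in lung, and the B cell list (5 genes, mostly Ighm) to 93.7 and 127 CPM against 239 and 264 CPM. Both lists were thus lower where the S100 transcripts were higher, and their part in the result was not tested.

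TCR sequences linked cells of 1 clone across the organs. Mouse 1 had 105 clones and mouse 2 had 21 with cells in both lung and MLN. Summed over its cells in CPM, S100a4 was higher in the lung than in the MLN cells of the same clone in 60 clones of mouse 1, lower in 5 and equal in 40, and in 12, 3 and 6 clones of mouse 2. S100a6 was higher in lung in 84 of 105 and in 16 of 21 clones. For S100a11 the clones fell evenly, 54 higher and 50 lower in mouse 1 and 11 higher and 10 lower in mouse 2. MLN cells of shared clones had more S100a4 than other MLN cells, 28.8 against 7.45 CPM in mouse 1 and 107 against 6.02 CPM in mouse 2, where the first value rests on 14 UMIs in 22 cells. S100a6 in the same cells was at 411 against 226 CPM and 359 against 192 CPM. In lung, clones of 2 or more cells had more S100a4 than clones of 1 cell, 323 against 183 CPM in lung 1 and 398 against 184 CPM in lung 2. Lung cells of shared clones did not stand apart from other lung cells in the same direction in both mice, with S100a4 at 203 against 226 CPM and 223 against 217 CPM. These values describe cells of 2 mice and were not tested.

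The second comparison was between nodes that drain different organs, medLN for the lung and MLN for the gut, first among IL-4eGFP+ cells. S100a4 was at 83.1 and 73.3 CPM in medLN and 25.3 and 25.4 CPM in MLN. The groups did not overlap, and the log2 difference was 1.61 ± 0.09 (SE, n = 2 and 2 samples). S100a6 was at 440 and 422 CPM against 306 and 379 CPM, which did not overlap, with a log2 difference of 0.32 ± 0.09. S100a10 was at 942 and 848 CPM against 859 and 954 CPM, S100a11 at 603 and 618 CPM against 647 and 676 CPM and S100a13 at 213 and 214 CPM against 211 and 221 CPM. The log2 differences of these 3 were -0.03 ± 0.07, -0.13 ± 0.05 and -0.03 ± 0.06, and the groups of S100a10 and S100a13 overlapped. S100a4 alone of the 5 lay past the threshold, where 1.28% of all 11262 genes passed, and as the members were listed with this comparison known nothing is read from it. The median of the 5 was -0.03 beside 0.00 for all genes.

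Of the partner genes, 14 were tested between these samples and 4 were higher in medLN, Capg (log2 difference 0.80), Ahnak (0.65), Anxa2 (0.55) and Myh9 (0.24), with none lower, 1.28% of all genes called and a median of 0.11. Within cells with and without the 9 markers, S100a4 was higher in medLN in 34 of 35 ratios, the exception being cells with Ccr9 in mouse 1 (0.783), and S100a6 in 29 of 35. S100a10 was higher in 13 and S100a11 in 8 of the 35. These ratios, too, divide the same samples in several ways, and nothing is read from their counts. The samples differed in makeup, with Itgb1 in 54.0% and 49.5% of medLN cells and 22.4% and 21.3% of MLN cells and Cxcr5 in 16.0% and 20.7% against 25.4% and 23.7%. The NK cell list, mostly Gzma, summed to 48.4 and 49.1 CPM in medLN and 148 and 536 CPM in MLN, and its part in the result was not tested.

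The same organs were then compared in IL-4eGFP- cells. The members were chosen with earlier results of these data known, which named none of them in this comparison. The mice and organs are those of the IL-4eGFP+ comparison, so the p-values below are not fully independent of that choice. S100a6 was at 62.8 and 66.2 CPM in medLN and 24.0 and 15.4 CPM in MLN. The groups did not overlap and S100a6 was higher in medLN by a log2 difference of 1.66 ± 0.14 (edgeR quasi-likelihood test, Benjamini-Hochberg adjusted p = 0.00023). It was the 1 member of 5 called, where 0.178% of all 10683 genes were called. S100a4 was at 16.7 and 23.9 CPM against 10.6 and 7.25 CPM, a log2 difference of 1.13 ± 0.21 (adjusted p = 0.062). S100a10 was at 365 and 374 CPM against 302 and 262 CPM (0.34 ± 0.06, adjusted p = 0.063) and S100a11 at 117 and 126 CPM against 96.2 and 92.3 CPM (0.31 ± 0.07, adjusted p = 0.16). In none of these 3 did the groups overlap, but they did not pass. S100a13, at 153 and 152 CPM against 144 and 141 CPM, had a log2 difference of 0.04 ± 0.06 (adjusted p = 0.99). With the mouse as a replicate block, which the shared animals allow, 4 of the 5 were called, where 0.608% of all genes were called in that fit, with adjusted p = 0.0054 for S100a4, 1.6e-07 for S100a6, 0.0044 for S100a10 and 0.022 for S100a11. The median of the 5 was 0.34 beside 0.00 for all genes.

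A few cells carried much of the S100a6 and S100a4 counts in the IL-4eGFP- samples. S100a6 was found in 4.57% (3.73 to 5.53) and 5.17% (4.26 to 6.20) of medLN cells and 2.18% (1.62 to 2.87) and 2.91% (2.24 to 3.70) of MLN cells. The 10 cells with most S100a6 UMIs held 56.6% and 53.2% of the medLN sums and 72.5% and 45.5% of the MLN sums, and 1 cell of medLN 1 held 80 of 484 UMIs. Without those 10 cells S100a6 was at 27.7 and 31.6 CPM in medLN and 6.65 and 8.45 CPM in MLN, without overlap. The 10 came from 99 and 108 cells with S100a6 in medLN but from 49 and 63 in MLN. Leaving them out therefore cannot tell whether the difference rests on a few cells. For S100a4 the 10 top cells held 63.6% and 66.7% in medLN and 68.2% and 93.0% in MLN. For the other members the 10 top cells of an IL-4eGFP- sample held less, 7.68% to 16.8% of S100a10, 13.2% to 19.9% of S100a11 and 4.14% to 5.51% of S100a13. Ahnak, at 32.7 and 34.6 CPM against 19.4 and 15.0 CPM, was the 1 of 14 tested partners that was called (0.91, adjusted p = 0.0094). Cells with Foxp3, the factor of regulatory T cells, made up 10.2% and 12.3% of medLN cells and 8.40% and 10.7% of MLN cells, and cells with Cd44 9.14% and 8.85% against 6.54% and 5.95%. Within cells with and without the markers S100a6 was higher in medLN in 34 of 34 ratios (1.09 to 9.01) and S100a10 in 34 of 34 (1.01 to 3.33). These ratios divide the same samples in several ways and are no separate checks.

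IL-4eGFP+ cells had more of all 5 expressed members than IL-4eGFP- cells of the same nodes. S100a6 was the most different, from 306 to 440 CPM in the 4 IL-4eGFP+ samples against 15.4 to 66.2 CPM in the 4 IL-4eGFP- samples, a log2 difference of 3.24 ± 0.10 (adjusted p = 1.1e-09). S100a11 was at 603 to 676 CPM against 92.3 to 126 CPM, a log2 difference of 2.38 ± 0.04 (adjusted p = 1.9e-11). The member with the smallest difference was S100a13, at 211 to 221 CPM against 141 to 153 CPM, with 0.35 ± 0.04 (adjusted p = 8.3e-06). None of these ranges overlapped. S100a4 was higher by 1.54 ± 0.12 (adjusted p = 1.1e-06), with its lowest IL-4eGFP+ value, 25.3 CPM, just above its highest IL-4eGFP- value, 23.9 CPM. S100a10, at 848 to 954 CPM against 262 to 374 CPM, was higher by 1.29 ± 0.06 (adjusted p = 7.9e-09). All 5 members tested were called higher, where 62.1% of all 11534 genes were called in 1 direction or the other, so a call alone says little here. The median of the 5 was 1.54 beside -0.01 for all genes. Each gate is 1 library of the same 2 mice, so these p-values do not measure a spread between libraries of a gate. The IL-4eGFP+ samples, 1 arm of this comparison, had levels known when the members were chosen. The p-values are therefore not independent of that choice.

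**Figure D4:**
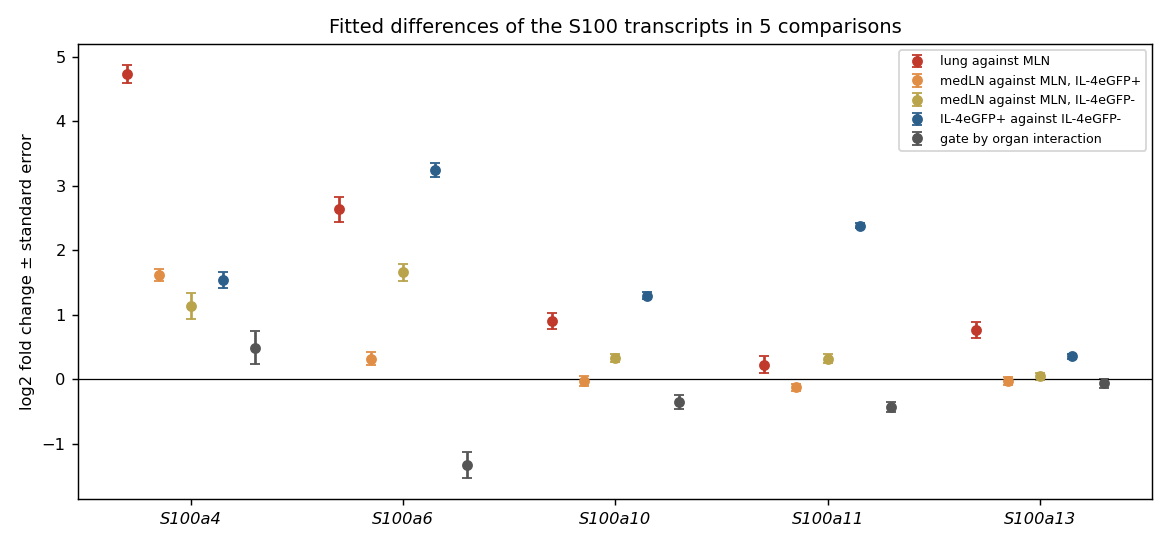
Fitted log2 differences of 5 S100 transcripts with their standard errors (edgeR) in the 5 comparisons, with 2 samples per group between organs, 4 per gate between gates and all 8 gated samples for the interaction. S100a4 has the largest value in lung against MLN (4.73), S100a6 the largest in IL-4eGFP+ against IL-4eGFP- (3.24), and S100a11 differs from 0 mainly between the gates (2.38).

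Thinned to equal depth, S100a11 was found in 61.4% to 63.2% of IL-4eGFP+ and 13.2% to 16.1% of IL-4eGFP- cells, and S100a6 in 21.1% to 30.3% and 1.67% to 4.11%. S100a10 was found in 67.5% to 70.4% of thinned IL-4eGFP+ cells and still in 35.6% to 40.0% of IL-4eGFP- cells. Among the partners, 15 were tested, of which 5 were higher in IL-4eGFP+ cells and 2 lower, where 62.1% of all genes were called, with a median of -0.01. Anxa1 (4.21), Anxa2 (3.88) and Ahnak (2.46) led the higher ones, followed by Anxa5 (0.52) and Bsg (0.50), and Capg (-0.29) and Tpm3 (-0.12) were lower. The ratio of S100a10 to Anxa2 CPM, whose products bind each other, was 3.52 to 5.44 in IL-4eGFP+ samples of the nodes and 15.9 to 46.7 in IL-4eGFP- samples. In the first experiment the ratio was 8.70 and 6.96 in lung and 8.94 and 13.3 in MLN.

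The organ difference of S100a6 was not the same in both gates. The medLN against MLN difference was smaller in IL-4eGFP+ than in IL-4eGFP- cells by 1.33 ± 0.21 on the log2 scale (interaction value -1.33, edgeR adjusted p = 0.037). The IL-4eGFP+ organ difference, which was known when the members were chosen, is 1 of the 2 parts of this value, so its p is not independent of that choice. S100a6 was the 1 member of 5 called, where 0.156% of all 11534 genes were called. For S100a11 the interaction was -0.44 ± 0.08 (adjusted p = 0.063, and 0.023 with the mouse as a replicate block, under which S100a6 and S100a11 and 0.381% of all genes are called). S100a4 (0.49 ± 0.25, adjusted p = 0.76), S100a10 (-0.36 ± 0.11, adjusted p = 0.47) and S100a13 (-0.06 ± 0.07, adjusted p = 0.93) did not pass. The S100a6 call was lost in 6 of the 8 fits that left out 1 sample, where the value ranged from -1.67 to -1.08 and the adjusted p from 0.016 to 0.168. It was lost without either medLN sample of either gate or without MLN 2 of either gate, with adjusted p of 0.091 to 0.168. None of the 15 partners tested was called for the interaction by edgeR.

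Cells of 1 sample also differed from each other. The ratios that follow are CPM in cells with a UMI of a marker over CPM in cells without, computed in each sample and given as a description, since cells of 1 sample are no replicates. Cells with a marker UMI were usually deeper, for example those with Mki67 (median 7919 to 10838 UMIs against 2927 to 6607).

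Cells with Il5 had more S100a4 in the 4 samples that held at least 20 of them. Lung cells with Il5 had S100a4 at 478 CPM against 191 CPM in lung 1 (103 cells with Il5) and 597 against 197 CPM in lung 2 (20 cells). In medLN IL-4eGFP+ samples the cells with Il5 (21 and 23) had 454 against 72.6 CPM and 570 against 62.2 CPM. Cells with Il13 had 1.74 and 1.85 times the S100a4 of other cells in lung, and 6.77 and 6.34 times in medLN IL-4eGFP+, but 0.944 times in MLN 2 IL-4eGFP+ (20 UMIs). Cells with Il1rl1, the IL-33 receptor, had more S100a4 (2.28 to 7.04 times) and S100a6 (2.22 to 3.01 times) in the 4 IL-4eGFP+ samples. For S100a4 the Il1rl1 ratio was 1.25 and 1.47 in lung, and in MLN of the first experiment it lay on both sides of 1, at 0.504 and 2.87. Ccr8 and Areg, other effector genes, gave mixed ratios. Cells with Ccr8 had S100a6 at 0.691 to 0.875 times in the 4 IL-4eGFP+ samples, and S100a4 at 0.136 to 1.61 times, higher in 3. Their S100a4 ratio was 1.44 to 2.00 in lung and 2.31 to 17.5 in 3 IL-4eGFP- samples. For Areg the S100a4 ratio was 0.943 to 1.59 in lung. In 3 IL-4eGFP+ samples Areg gave 0.151 to 4.10 for S100a4 and 0.551 to 2.55 for S100a6.

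Cells with Itgb7 had more S100a6 and S100a4. Itgb7, which pairs with integrin alpha 4 for entry into the gut wall, marked cells with S100a6 at 319 against 97.2 CPM in MLN 1 and 260 against 79.7 CPM in MLN 2. In the IL-4eGFP+ samples the ratio was 3.03 to 6.43, in the IL-4eGFP- samples 2.58 to 4.06, and in lung 1.69 and 1.30. The S100a4 ratio was 2.57 and 8.36 in MLN, 2.72 to 6.57 in the IL-4eGFP+ samples and 1.08 to 19.4 in the IL-4eGFP- samples. Ccr9 and Itgb1, other homing genes, gave S100a6 ratios on both sides of 1 in lung, 0.881 to 1.10 and 0.795 to 1.07. In all node samples both gave S100a6 ratios above 1. For Ccr9 they were 1.45 to 1.51 in MLN, 1.42 to 2.89 in the IL-4eGFP+ and 3.86 to 7.92 in the IL-4eGFP- samples. For Itgb1 they were 1.76 to 2.01, 1.28 to 1.85 and 2.76 to 5.76. Cells with Klf2, a factor of recirculating T cells, had 2.01 and 3.44 times the S100a6 of others in MLN and 2.09 to 3.58 times in the IL-4eGFP+ samples, but 0.970 and 0.739 times in lung and 0.313 to 1.44 times in the IL-4eGFP- samples, higher in 1 of 4. S100a4 in lung was lower in cells with Klf2 (0.466 and 0.360 times) and Ccr7 (0.276 and 0.308 times), both genes of cells that travel through nodes. In the 4 IL-4eGFP+ samples S100a4 was instead higher in cells with Klf2 (1.84 to 3.798 times) and S1pr1 (1.41 to 4.00 times). Ccr7 cells had less S100a4 in all 12 samples, with ratios of 0.0688 to 0.326, and less S100a11 in all 12, with ratios of 0.310 to 0.850.

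Cells with Cxcr5, a receptor of follicular helper cells, had more S100a11 and less S100a6 and S100a10 in the IL-4eGFP+ samples. In the 4 IL-4eGFP+ samples of the nodes, cells with Cxcr5 (330 to 505 cells) had S100a11 at 844 to 931 CPM against 548 to 615 CPM in other cells, ratios of 1.42 to 1.70. The same cells had S100a6 at 0.425 to 0.583 times and S100a10 at 0.550 to 0.629 times the level of other cells. In MLN of the first experiment the ratios were 1.48 and 1.54 for S100a11, 0.753 and 0.808 for S100a10 and 0.940 and 0.721 for S100a6. Bcl6 and Il21 gave ratios of the same direction in the IL-4eGFP+ samples, for S100a11 1.17 to 1.28 and 1.14 to 1.53. In MLN of the first experiment both gave S100a11 ratios above 1 and S100a10 ratios below 1. Their S100a6 ratios there lay on both sides of 1, 0.761 to 1.20 for Bcl6 and 0.703 to 1.63 for Il21. In the IL-4eGFP- samples cells with Cxcr5 had more S100a11 (1.02 to 3.76 times) and more S100a10 (1.31 to 2.48 times) in 4 of 4. The same cells had more S100a6 in 3 of 4 (0.462 to 2.15 times). Cells with Bcl6 had more S100a11 in 1 of 4 IL-4eGFP- samples.

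Cycling cells, those with Mki67, had less S100a11 in IL-4eGFP+ samples (0.456 to 0.577 times) and more in IL-4eGFP- samples (2.05 to 4.77 times). Top2a, another gene of cycling cells, gave S100a11 ratios of 0.448 to 0.527 in IL-4eGFP+ samples. In IL-4eGFP- samples it gave 0.897 to 3.23, above 1 in 3 of 4. In the 4 IL-4eGFP- samples S100a6 was higher in cells with Mki67 (3.47 to 18.9 times) and in cells with Cd44 (3.31 to 10.1 times). S100a10 was higher in the same cells, at 1.53 to 4.33 times for Mki67 and 1.74 to 2.75 times for Cd44. Cells with Foxp3 in these IL-4eGFP- samples also had more S100a6 than the rest. S100a6 was at 415 against 13.9 CPM in medLN 1 IL-4eGFP- and 347 against 21.6 CPM in medLN 2 IL-4eGFP-. In MLN 1 IL-4eGFP- it was at 147 against 12.8 CPM and in MLN 2 IL-4eGFP- at 44.5 against 12.1 CPM. The 189 to 257 cells with Foxp3 thus had 3.69 to 29.9 times the level of the rest. S100a10 was 2.33 to 4.22 times and S100a11 2.35 to 4.24 times as high in them, and S100a13 1.20 to 1.48 times. Their S100a4 was at 0.155 to 9.87 times that of the rest, higher in 3 of 4 samples. Outside the Foxp3 cells of the IL-4eGFP- samples S100a6 still lay higher in medLN (13.9 and 21.6 CPM) than in MLN (12.8 and 12.1 CPM), by less than in the whole samples. The 21 to 65 Foxp3 cells of each IL-4eGFP+ sample differed from this. Their S100a6 was at 0.345 to 1.42 times that of the rest, higher in 2 of 4 samples. Their S100a11 was at 0.467 to 0.929 times, higher in 0 of 4, and their S100a10 at 1.08 to 1.53 times, higher in 4 of 4.

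**Figure D5:**
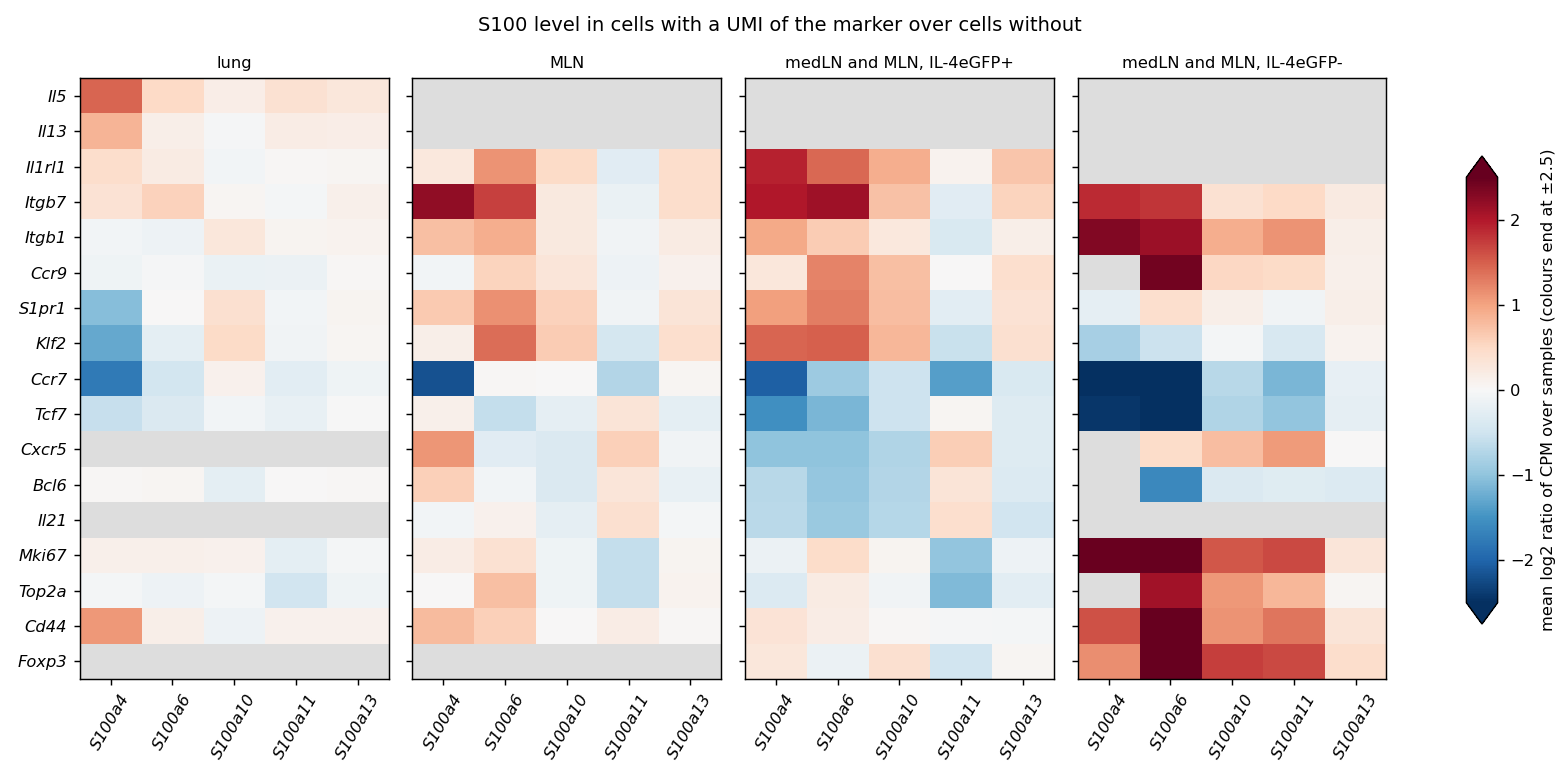
Mean over samples of the log2 ratio of CPM between cells with and without a UMI of each marker gene (rows), for 5 S100 transcripts (columns) in lung (2 samples), MLN (2), IL-4eGFP+ (4) and IL-4eGFP- (4) samples; colours end at ±2.5, and grey marks fewer than 20 cells with the marker or no S100 UMI in a sample. Ccr7 cells are low in S100a4 throughout, and Cxcr5 cells are high in S100a11 and low in S100a6 and S100a10 in IL-4eGFP+ samples. Foxp3, Mki67 and Cd44 cells are high in S100a6 in IL-4eGFP- samples.

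The members occurred together in cells more in some samples than in others. Cells with S100a4 had more S100a6 than cells without it in all 12 samples, from 1698 against 1097 CPM in lung 1 to 1250 against 10.8 CPM in MLN 1 IL-4eGFP-. In the IL-4eGFP- samples the 13 to 40 cells with S100a4 had S100a6 at 669 to 1414 CPM, S100a10 at 1613 to 2371 CPM and S100a11 at 883 to 1318 CPM. Cells with S100a4 in the IL-4eGFP+ samples had S100a6 at 1159.5 to 1617.5 CPM, S100a10 at 1544 to 1789 CPM and S100a11 at 874 to 1020 CPM. For each of these genes the ranges of the gates overlapped. Across thinned cells of 1 sample, Pearson's r between S100a4 and S100a6 was 0.09 to 0.41 and between S100a10 and S100a11 0.16 to 0.32, both weak and given only as a description, since the cells share a library and counts are sparse.

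Over the 12 samples, centred on each experiment's mean of log2(CPM + 1), the expressed genes most like S100a4 among 2537 with a mean of at least 50 CPM were Iqgap2 (Pearson's r = 0.979), Iqgap1, Vim, Tgfb1 and Rexo2. Those most like S100a6 were Ranbp2 (0.980), Icos, Fabp5, Lgals1 and Rrbp1, and those most like S100a10 were Cmtm7 (0.992), Surf4, Ccng1, Hdlbp and Sh3bgrl. S100a11 was most like Il4 (0.998), Calm3, Hcls1, Prr13 and Calm2, the calmodulin genes being calcium-binding proteins of the same EF-hand type. The gates were sorted by an Il4 reporter, so Il4 differs between them by design. A high r with Il4 then follows for any gene that differs mainly between the gates. Between members r ranged from 0.47 for S100a4 and S100a11 to 0.97 for S100a6 and S100a10. These values describe 12 samples of 4 mice that share organs, gates and libraries, and no p is given.

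Of the 10 S100 genes that are not members, 1 had no UMI, 7 had 1 to 99 UMIs in an experiment and 2 had at least 100. S100a1 had 95 UMIs in lung and MLN and 216 in medLN and MLN, and S100a3 had 56 and 122. Both are next to members on the chromosome, S100a1 to S100a13 and S100a3 to S100a4.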

How the data were processed

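The authors deposited unnormalized UMI counts, 1 value per gene and barcode, made with Cell Ranger (2.1.1 and 3.0.1 for lung and MLN with both sequencing runs combined, 6.1.2 for medLN and MLN with both gates aggregated) on mm10, per the file headers, the submitters' processing notes and the methods section. TCR contigs per cell were deposited as well. The sources used here do not give whether reads were evened out between the aggregated libraries.

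The filters kept barcodes with more than 500 UMIs and 500 genes, less than 7% mitochondrial UMIs and a novelty above 0.8 (log10 genes over log10 UMIs), and in lung and MLN with a productive TCRα and TCRβ chain. This left 4714 of 6319 and 16748 of 19683 barcodes. The gate was taken from the barcode ending, and hashtags were called in each gate with HTODemux of Seurat 5.3.0 (quantile 0.99). Hashtag doublets were removed, and lung and MLN cells with extra TCR chains (286) in an alternative run. Sums and tests exclude TCR genes. Cells of a mouse with identical productive chains form a clone.

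Counts were summed per library or hashtag sample and compared with edgeR 4.0.16 (filterByExpr, TMM, quasi-likelihood test, Benjamini-Hochberg adjustment over all genes, threshold 0.05), with the samples of 1 gate in each organ comparison and all 8 hashtag samples for the gate and the interaction. The p-values measure the spread between 2 mice per group. The numbers 1 and 2 mark the same animal in both organs, and the deviations of an animal's samples correlated over genes with r = 0.0398 in lung and MLN, 0.235 in IL-4eGFP+ and 0.117 in IL-4eGFP- samples. Alternatives were DESeq2 1.42.0, its size factors, no filter, the mouse as a replicate block, each sample left out, other choices of cells, a hashtag rule (80% of hashtag UMIs) and 1 fit over both gates. The test was tried on simulated data with 200 changed genes, of which 183 were found with 23 false calls for lung against MLN, 190 with 23 and 195 with 13 for the organ comparisons of IL-4eGFP+ and IL-4eGFP- cells, 194 with 12 for the gate and 165 with 19 for the interaction. Genes raised in the simulation had a median fitted log2 difference of 1.97 to 2.02, and smaller changes were not tried. Intervals are exact Clopper-Pearson (95%), and a count of 0 is given with the share of 3 counts.

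The text names all 7 members, other S100 genes with at least 100 UMIs in an experiment, a list of 21 partners and the 5 genes most like each of 4 members. Members, partner and marker lists were chosen with earlier results of these data known. A marker of the fixed list is not reported here.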

Additional observations from a re-analysis of the deposited data

Results flagged for a closer look

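The medLN against MLN difference of S100a6 was smaller in IL-4eGFP+ than in IL-4eGFP- cells, with an interaction of -1.33 ± 0.21 on the log2 scale (edgeR adjusted p = 0.037, 8 samples of 2 mice). The IL-4eGFP+ part of this value was known when the members were chosen, so the p is not independent of that choice. S100a6 was higher in medLN in both mice in each gate. The call was lost in 6 of the 8 fits without 1 sample (adjusted p of 0.016 to 0.168). The 10 cells with most S100a6 held 45.5% to 72.5% of the IL-4eGFP- sums and 10.1% to 16.1% of the IL-4eGFP+ sums, and their part in the difference was not tested. Cells with Foxp3 had 3.69 to 29.9 times the S100a6 of the rest in IL-4eGFP- samples and 0.345 to 1.42 times in IL-4eGFP+ samples. Outside the Foxp3 cells of the IL-4eGFP- samples the organ difference was smaller, and the part of these cells was not tested either.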

How the results depend on the processing

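The members past the threshold in lung against MLN (4), between the gates (5) and among IL-4eGFP+ cells (S100a4) kept direction and call under every alternative run, from which nothing is read for the 2 organ comparisons, as the members were chosen with them known. Among IL-4eGFP+ cells leaving out 1 sample gave 1 to 2 called members, 2 without MLN 2 IL-4eGFP+, where S100a6 (0.49) was called. With 1 sample left out S100a10 ranged from -0.11 to 0.061 (above 0 without medLN 2 or MLN 2) and S100a13 from -0.071 to 0.02 (above 0 without MLN 2), none of them called. Among IL-4eGFP- cells the 1 called member became 2 with DESeq2 (S100a10) and with the hashtag rule (S100a4), 4 with the replicate block and 3 to 4 with 1 sample left out. For the interaction the 1 called member became 2 (S100a11) with DESeq2, no filter on low counts, the replicate block and the hashtag rule, and 0 to 1 with 1 sample left out. The replicate block changed no other member's call. With 1 sample left out an arm holds a lone sample, which is assumed to vary like the other groups, and the cause of the higher counts then was not tested. After thinning, the share of cells with S100a10 was 1.45 and with S100a11 0.72 percentage points higher in medLN than in MLN IL-4eGFP+ cells, against lower before. Counts over all genes moved by over 1.5 times for lung against MLN (3284 to 1833 with DESeq2, 2055 with equal cell numbers and 1918 without MLN 1), IL-4eGFP+ (144 to 47 with no filter, 13 without medLN 1 and 49 without medLN 2), IL-4eGFP- (19 to 2 with no filter, 65 with the replicate block, 5 with 1 fit over both gates and 98 to 194 with 1 sample left out) and the interaction (18 to 37 with DESeq2, 68 with no filter, 44 with the replicate block and 4 to 13 with 1 sample left out).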

Other observations

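Barcodes that failed the filters also held S100 UMIs. In lung 1 the 607 left-out barcodes held 3214 UMIs of S100a6 and 490 of S100a4, and in MLN 1 the 551 left-out barcodes held 408 and 15. In lung 2 a left-out barcode held 1 UMI of S100a8, and S100a9 had none in any left-out barcode.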
